A study of Mus musculus with 16 samples.

Results

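Integrins are the adhesion receptors with which thymocytes hold on to stroma, to matrix and to each other, and 8 genes that encode integrin chains of thymocytes are described here: *Itgal*, *Itgb2*, *Itga4*, *Itgb1*, *Itgb7*, *Itgae*, *Itga6* and *Itgb3*. They were chosen by name, as 8 of the 27 mouse genes for integrin subunits and 8 of the 24974 genes counted in both tables of the study, and all 8 passed the filter on low counts in every comparison. The study removed Tox4, an HMG-box protein, from developing T cells and measured polyadenylated RNA by strand-specific RNA-seq in CD4+CD8+ double-positive (DP) thymocytes and in CD8 thymocytes. Control mice carried *Tox4* f/f without Cre (their DP samples are labelled WT) and cKO mice carried *Tox4* f/f with Lck-Cre, a transgene driven by the proximal *Lck* promoter that deletes exons 4 to 6 from the DN3 stage on, so that the DP and CD8 cells of a cKO mouse had both developed after the deletion began. The mice were of C57BL/6 background, sex-matched littermates and 6 to 8 weeks old by the study's methods. By the study's text, DP cells were sorted by flow cytometry (3 control and 3 cKO samples), and CD8 cells were sorted as TCRβ+CD8+ thymocytes (5 control and 5 cKO samples). Counts on genes came to between 14583336 and 25981683 per DP sample and between 8514135 and 13530783 per CD8 sample.

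An integrin is a pair of an α chain and a β chain, and one chain can have several partners. Lymphocytes use αLβ2 (LFA-1) to bind ICAMs on other cells, α4β1 (VLA-4) to bind VCAM-1 and fibronectin, α4β7 to bind MAdCAM-1 of gut vessels, αEβ7 (CD103) to bind E-cadherin on epithelium, and α6β1 to bind laminin, while β3 pairs with αv or, in platelets, with αIIb. In the thymus, these receptors are known for the contacts of thymocytes with epithelium and for movement between cortex and medulla, and αE is known as a chain that CD8 cells gain as they mature.

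*Tox4* itself stood at 104, 107 and 113 TPM (a level per length and depth, computed from counts and exonic lengths) in DP control samples 1 to 3 and at 86.5, 89.0 and 77.8 TPM in DP cKO samples 1 to 3, without overlap. In CD8 cells it stood at 139, 141, 148, 142 and 129 TPM in control samples 1 to 5 and at 122, 137, 131, 162 and 133 TPM in cKO samples 1 to 5. The groups overlapped in CD8 cells, and the library labelled cKO replicate 4 had a higher *Tox4* level than any control library. Counts were per gene, and reads on the deleted exons were not examined apart from the rest, so these levels do not show the share of cells with the deletion. The paper describes the deletion as efficient, from Western blots of Tox4 in unsorted and in sorted thymocytes.

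The labelled cell types were checked by markers. *Rag1*, which cuts the receptor genes in DP cells, was at 2556 to 4269 TPM in the 6 DP samples and at 5.57 to 60.1 TPM in the 10 CD8 samples. *Cd4* was at 1454 to 1834 TPM in DP samples. The summed level of 7 genes of mature CD8 thymocytes (*Ccr7*, *S1pr1*, *Klf2*, *Il7r*, *Runx3*, *Nkg7* and *H2-K1*, the last the most abundant) was 171 to 344 TPM in DP samples and 4713 to 8115 TPM in CD8 samples, and none of the 7 was at 0 in any sample.

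The CD8 samples numbered 1 and 2 stood apart from those numbered 3 to 5 in both genotypes. *Cd4* was at 62.1 and 70.9 TPM in control samples 1 and 2 and at 69.7 and 81.6 TPM in cKO samples 1 and 2, but at 6.31, 3.64 and 10.7 TPM in control samples 3 to 5 and at 6.78, 5.79 and 8.33 TPM in cKO samples 3 to 5. The summed level of 8 DP markers other than *Cd8a* and *Cd8b1*, with *Dntt* the most abundant in CD8 cells and none at 0 in any sample, was 301 to 420.3 TPM in the 4 samples numbered 1 and 2 and 108 to 155 TPM in the other 6. The summed level of the 7 mature CD8 markers was 4713 to 5293 TPM in the first 4 and 6525 to 8115 TPM in the others. Control sample 1 of CD8 cells also had counts on 17741 genes, against 13708 to 14194 in the other 4 control samples. The members' values in CD8 cells, and the calls of the gene lists, are therefore given with and without the samples numbered 1 and 2, an alternative chosen after seeing the data.

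**Figure D1:**
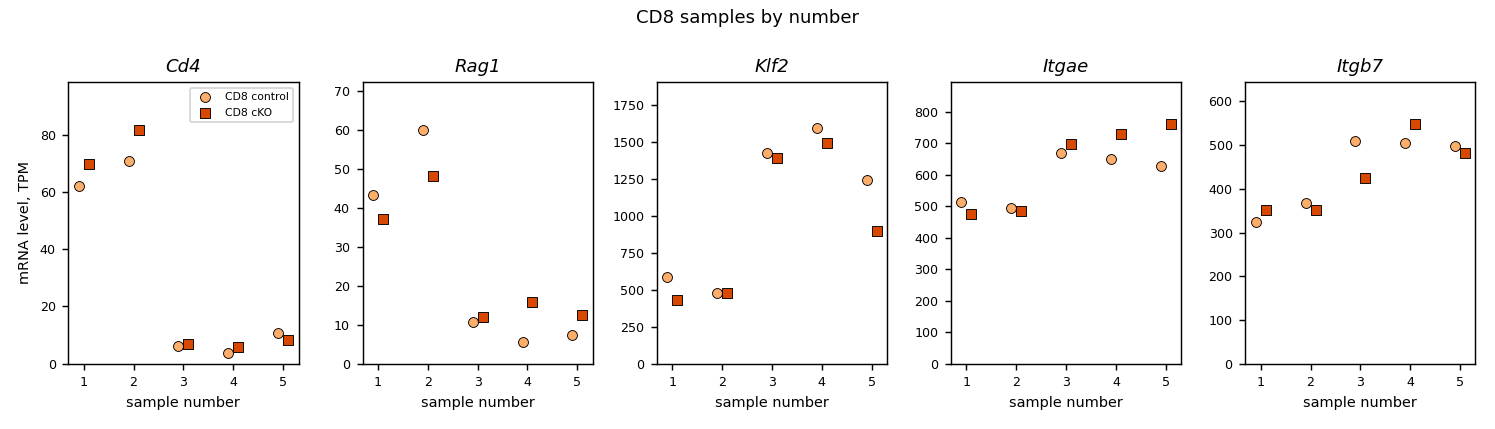
mRNA levels in TPM (vertical axes, from 0) of *Cd4*, *Rag1*, *Klf2*, *Itgae* and *Itgb7* in the CD8 samples, by sample number (horizontal axes), with circles for control and squares for cKO, 1 point per sample. *Itgae* was at 475 to 515 TPM in the 4 samples numbered 1 and 2 and at 627 to 763 TPM in the 6 samples numbered 3 to 5.

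Control CD8 cells were compared with control DP cells to ask how the integrin chains differ between the stages. The CD8 cells had far more mRNA for αE and β7, more for β3, α4 and β2, and less for β1. Of the 8 members, 5 were called higher and 1 lower in CD8 cells (edgeR adjusted p below 0.05, a difference of 1.5-fold or more, and 1 TPM or more on average), where 22.0% of the 11758 genes tested were called higher, 22.3% lower and 44.3% either way. The members' median log2 fold change was 1.13, against -0.01 over all genes tested. DP and CD8 samples come from separate tables, so cell type cannot be told apart from library preparation, sequencing run or purification, and in these bulk samples fewer cells of a type and less RNA per cell cannot be told apart either.

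**Figure D2:**
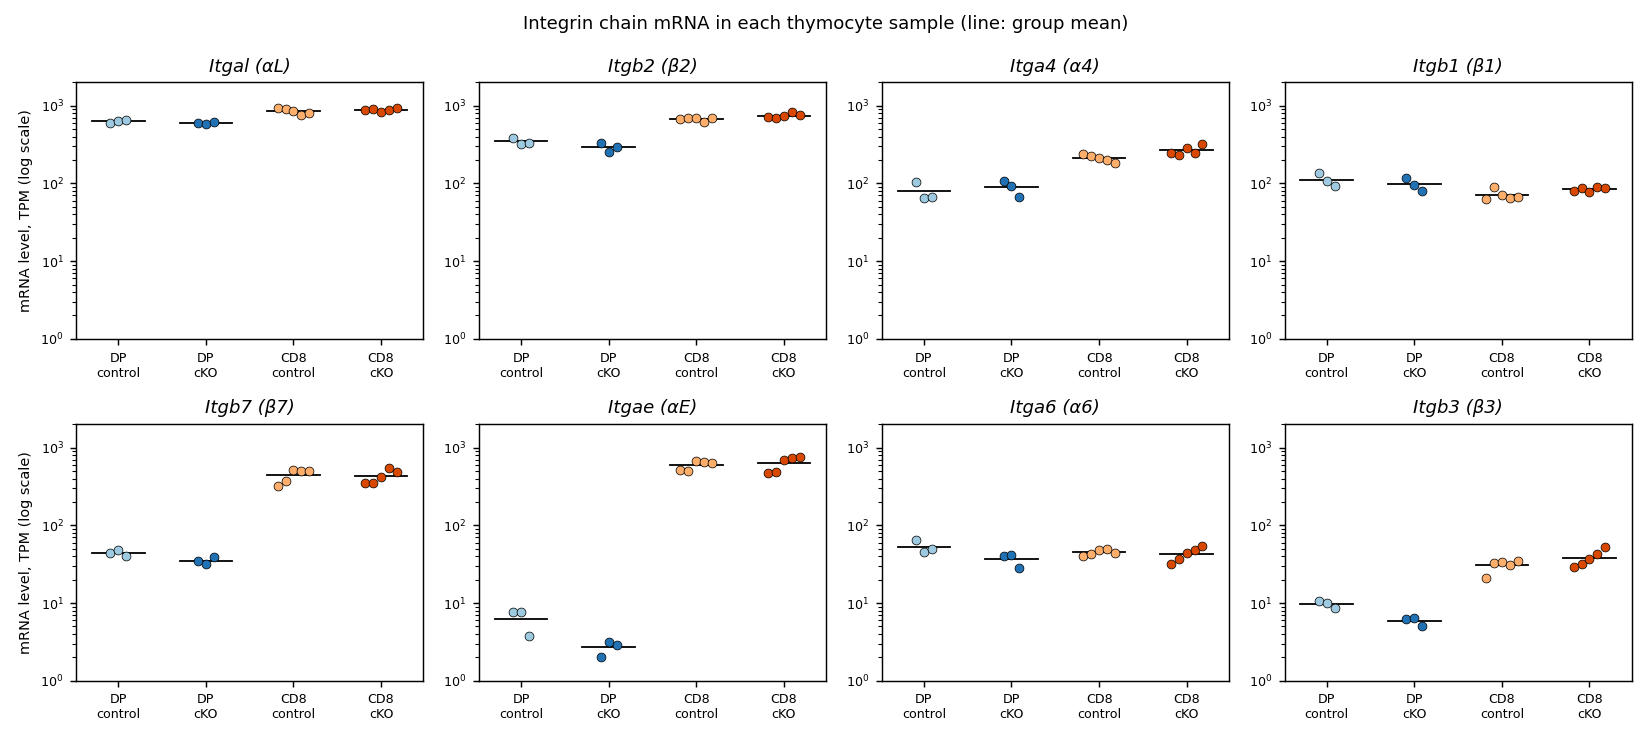
mRNA level in TPM (vertical axes, log scale, the same in all panels) of the 8 integrin genes in each sample of the 4 groups (horizontal axes), 1 point per sample in order of replicate number, with a line at the group mean. *Itgae* stands at 3.72 to 7.64 TPM in DP control samples and at 495 to 668 TPM in CD8 control samples.

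*Itgae*, the αE chain, was at 7.64, 7.62 and 3.72 TPM in DP control samples 1 to 3 and at 515, 495, 668, 649 and 627 TPM in CD8 control samples 1 to 5. Every CD8 sample was far above every DP sample, and within each group 1 or 2 samples were lower than the rest, DP sample 3 and CD8 samples 1 and 2. It rose 89.0-fold, the largest difference among the members (log2 fold change 6.48 with a standard error, SE, of 0.26, edgeR adjusted p = 9.36e-09). *Itgb7*, the chain that pairs with αE and with α4, was at 44.3, 47.6 and 39.8 TPM in DP control samples and at 324, 367, 508, 504 and 498 TPM in CD8 control samples. The groups were apart here too, with CD8 samples 1 and 2 again the lowest of their group. *Itgb7* rose 9.54-fold (log2 fold change 3.25, SE 0.19, adjusted p = 6.10e-08). Without the CD8 samples numbered 1 and 2 the log2 fold changes were 6.62 for *Itgae* and 3.46 for *Itgb7*.

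*Itga4*, the chain shared by α4β1 and α4β7, was at 104, 65.8 and 66.8 TPM in DP control samples and at 238, 224, 214, 199 and 186 TPM in CD8 control samples. The groups did not overlap, and DP sample 1 was higher than the other 2. *Itga4* rose 2.58-fold (log2 fold change 1.36, SE 0.15, adjusted p = 9.22e-06). *Itgb1*, the common β chain of the receptors for matrix, was at 135, 108 and 93.2 TPM in DP control samples and at 63.5, 91.2, 71.4, 65.3 and 67.4 TPM in CD8 control samples. CD8 sample 2 came close to DP sample 3 but the groups did not overlap, and *Itgb1* was the member called lower in CD8 cells, 1.64-fold (log2 fold change -0.71, SE 0.12, adjusted p = 3.99e-04). Without the CD8 samples numbered 1 and 2 the log2 fold changes were 1.29 for *Itga4* and -0.78 for *Itgb1*, and both calls held.

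*Itgal*, the αL chain of LFA-1, was at 605, 629 and 661 TPM in DP control samples and at 934, 896, 850.1, 756 and 798.5 TPM in CD8 control samples. The groups did not overlap, but the fold change of 1.27 was below the 1.5 needed for a call (log2 fold change 0.35, SE 0.11, adjusted p = 0.0169, which ran from 0.00135 to 0.0578 over the alternatives), and the log2 fold change was 0.28 without the CD8 samples numbered 1 and 2. *Itgb2*, the β2 chain of LFA-1, was at 389, 325 and 331 TPM in DP control samples and at 667, 698.1, 698.3, 622 and 695.5 TPM in CD8 control samples. All 5 CD8 samples lay above all 3 DP samples, and *Itgb2* rose 1.85-fold (log2 fold change 0.89, SE 0.09, adjusted p = 6.11e-06, and also 0.89 without the CD8 samples numbered 1 and 2).

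*Itga6*, the laminin-binding α6 chain, was at 64.7, 46.1 and 49.5 TPM in DP control samples and at 39.8, 42.2, 48.4, 49.6 and 44.4 TPM in CD8 control samples. The groups overlapped and *Itga6* was not called, with a log2 fold change of -0.32 (SE 0.12, adjusted p = 0.0346, 0.127 without the CD8 samples numbered 1 and 2 and between 0.0246 and 0.156 over the alternatives). *Itgb3*, the partner of αv, was at 10.5, 9.99 and 8.64 TPM in DP control samples and at 21.1, 32.9, 33.7, 30.6 and 35.2 TPM in CD8 control samples. CD8 sample 1 was the lowest of its group and still above all DP samples, and *Itgb3* rose 3.0-fold (log2 fold change 1.59, SE 0.16, adjusted p = 6.92e-06, 1.71 without the CD8 samples numbered 1 and 2). For each member other than *Itga6*, whose exact p was 0.0714, the 2-sided exact permutation test gave p = 0.0357, the smallest that 3 samples against 5 allow.

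The order of the chains by mean TPM changed between the stages. In DP control cells *Itgal* came first at 632 ± 27.9 TPM (SD, n = 3), followed by *Itgb2* at 348 ± 35.7, *Itgb1* at 112 ± 21.3, *Itga4* at 78.9 ± 21.8, *Itga6* at 53.4 ± 9.89, *Itgb7* at 43.9 ± 3.90, *Itgb3* at 9.71 ± 0.969 and *Itgae* at 6.33 ± 2.25 TPM. The samples of *Itgb1* and *Itga4* overlapped, as did those of *Itga6* and *Itgb7*. In CD8 control cells the order was *Itgal* at 847 ± 71.9 TPM (SD, n = 5), *Itgb2* at 676 ± 32.8, *Itgae* at 591 ± 79.995, *Itgb7* at 440.4 ± 87.9, *Itga4* at 212 ± 20.7, *Itgb1* at 71.7 ± 11.3, *Itga6* at 44.9 ± 4.10 and *Itgb3* at 30.7 ± 5.63 TPM. Of neighbours in that order, *Itgb2* and *Itgae* overlapped, and *Itgae* and *Itgb7* overlapped. *Itgae* went from the last place in DP cells to the third in CD8 cells, at percentiles 62.4 and 99.2 of all genes by mean TPM. Without the samples numbered 1 and 2 the order of the means was the same in CD8 control cells, and *Itgae*, at 648 ± 20.6 TPM (SD, n = 3), no longer overlapped *Itgb7*, at 504 ± 4.99 TPM.

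**Figure D3:**
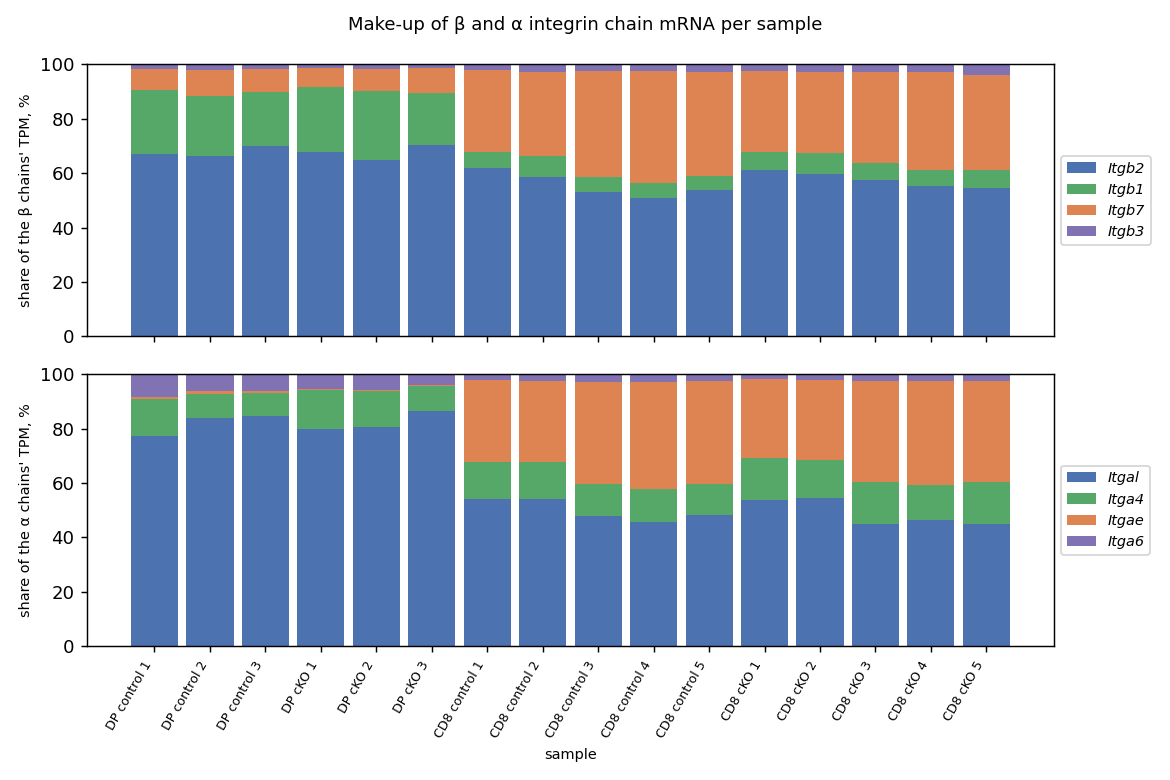
Share of each chain, in percent (vertical axes, 0 to 100), of the summed TPM of *Itgb2*, *Itgb1*, *Itgb7* and *Itgb3* (upper panel) and of *Itgal*, *Itga4*, *Itgae* and *Itga6* (lower panel) in each of the 16 samples (horizontal axis, 1 stacked bar per sample). *Itgb7* had a mean share of 8.59% in DP control samples and 35.9% in CD8 control samples, and *Itgae* 0.824% and 34.9%.

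Among the 4 β chains, the share of mRNA moved from β1 and β2 to β7 between DP and CD8 control cells, as the plot of chain shares by sample shows. *Itgb1* had 21.7 ± 1.83% of the summed β-chain TPM in DP control cells (SD, n = 3) and 5.91 ± 1.02% in CD8 control cells (SD, n = 5), and *Itgb2* had 67.8 ± 1.97% and 55.7 ± 4.52%. *Itgb7* had 8.59 ± 1.04% and 35.9 ± 5.04%. Among the 4 α chains, *Itgal* had 82.0 ± 3.99% in DP control cells and 49.96 ± 3.86% in CD8 control cells. *Itgae* had 0.824 ± 0.302% and 34.9 ± 4.63%, while *Itga4* had like shares in both, 10.2 ± 2.68% and 12.5 ± 1.10%. Without the CD8 samples numbered 1 and 2, the shares in CD8 control cells were 39.5% for *Itgb7*, 52.6% for *Itgb2*, 38.2% for *Itgae* and 47.2% for *Itgal*.

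Ratios of the TPM of chains that pair describe which chain was in excess as mRNA, with no test. The log2 ratio of *Itgae* to *Itgb7* was -2.86 ± 0.48 in DP control cells (SD, n = 3) and 0.44 ± 0.13 in CD8 control cells (SD, n = 5), so αE mRNA went from well below β7 mRNA to somewhat above it. The log2 ratio of *Itga4* to *Itgb7* went the other way, from 0.82 ± 0.39 to -1.03 ± 0.43, and that of *Itgae* to *Itga4*, the α chains that share β7, from -3.68 ± 0.53 to 1.47 ± 0.32. That of *Itga4* to *Itgb1* went from -0.52 ± 0.17 to 1.57 ± 0.22, so the α4 chain was below β1 in DP cells and above it in CD8 cells. The LFA-1 ratio, *Itgal* to *Itgb2*, was above 0 in both stages, at 0.86 ± 0.20 and 0.32 ± 0.11. For *Itga6* to *Itgb1* the log2 ratios were -1.07 ± 0.16 and -0.67 ± 0.27, with overlapping samples, and for *Itgav* to *Itgb3* they were 0.70 ± 0.17 and -0.30 ± 0.36. Without the CD8 samples numbered 1 and 2, the log2 ratio in CD8 control cells was -1.34 ± 0.09 for *Itga4* to *Itgb7* (SD, n = 3), 1.70 ± 0.06 for *Itgae* to *Itga4*, 0.36 ± 0.03 for *Itgae* to *Itgb7* and -0.50 ± 0.08 for *Itgav* to *Itgb3*, each on the same side of 0 as with them. Without division by length, the ratio of *Itga4* to *Itgb1* in DP control cells and that of *Itga4* to *Itgb7* in CD8 control cells lay on the other side of 0, at 0.71 and 0.84, while differences between the stages do not depend on length.

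The genes of the members lie on 6 chromosomes by the DP table (mm10), with *Itgae* at chr11:73090583-73147449, *Itgb3* at chr11:104608000-104670471, *Itga4* at chr2:79255426-79333114, *Itga6* at chr2:71786939-71858427, *Itgb7* at chr15:102215995-102231935, *Itgal* at chr7:127296260-127335137, *Itgb2* at chr10:77530370-77565708 and *Itgb1* at chr8:128685654-128733579. *Itga4* shares 166 of its 9832 exonic bases with *Cerkl* on the other strand, and counting was strand-specific. *Haspin* lies within *Itgae* on the other strand and shares 0 exonic bases with it. Promoter sequences of 3 of the 8 members, *Itga4*, *Itgb1* and *Itgb7*, were found in the RefSeq promoter table (build GRCm38.p6). They are shown because they are the members that table holds, which are α4 and its partners β1 and β7. Each is the 250 bases before the start of the gene, 5′ to 3′ on the gene's strand: *Itga4* chr2:79255176-79255425 (+), *Itgb1* chr8:128685404-128685653 (+) and *Itgb7* chr15:102231936-102232185 (-). Capitals mark GGGCGG (SP and KLF factors) and TGTGGT (RUNX factors, in *Itga4* on the opposite strand and so written as its reverse complement).
Itga4: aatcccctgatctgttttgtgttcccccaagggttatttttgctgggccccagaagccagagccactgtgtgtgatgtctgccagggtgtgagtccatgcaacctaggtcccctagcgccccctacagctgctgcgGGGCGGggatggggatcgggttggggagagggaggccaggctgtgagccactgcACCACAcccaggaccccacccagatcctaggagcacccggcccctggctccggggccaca
Itgb1: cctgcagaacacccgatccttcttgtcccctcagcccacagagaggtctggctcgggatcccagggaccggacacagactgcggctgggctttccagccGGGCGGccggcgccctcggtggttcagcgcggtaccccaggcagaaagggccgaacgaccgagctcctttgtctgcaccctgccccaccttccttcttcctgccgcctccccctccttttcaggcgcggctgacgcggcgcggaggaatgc
Itgb7: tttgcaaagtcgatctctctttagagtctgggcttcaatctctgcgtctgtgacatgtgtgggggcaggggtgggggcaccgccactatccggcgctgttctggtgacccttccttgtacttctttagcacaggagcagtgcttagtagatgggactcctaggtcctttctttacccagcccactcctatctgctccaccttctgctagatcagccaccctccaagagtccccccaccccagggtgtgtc
On either strand, GGGCGG was found in *Itga4*, at bases 114 to 109 before the start, and in *Itgb1*, at bases 151 to 146, and in 32.7% of 32851 promoters of the same length. TGTGGT was found in *Itga4* alone, at bases 60 to 55, and in 14.0% of all promoters. GGAAGT (ETS factors) was in none of the 3 and in 19.7% of all promoters. The G and C content was 64.0% for *Itga4*, 68.0% for *Itgb1* and 56.0% for *Itgb7*, against a median of 52.4%. Matches of this kind describe the letters only.

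Within CD8 cells, the members also differed by sample number, whatever the genotype. Over the 4 samples numbered 1 and 2, *Itgae* was at 475 to 515 TPM, *Itgb7* at 324 to 367 and *Itga6* at 31.6 to 42.2 TPM. Over the 6 samples numbered 3 to 5, *Itgae* was at 627 to 763 TPM, *Itgb7* at 425 to 548 and *Itga6* at 44.4 to 54.8 TPM. These 3 genes did not overlap between the sample numbers, while *Itgal*, *Itgb2*, *Itga4*, *Itgb1* and *Itgb3* did; 9.99% of the 11227 tested genes did not overlap in the same way. The samples with less *Itgae* and *Itgb7* were those with more *Cd4* and *Rag1* and less *Klf2* (430 to 585 TPM against 898 to 1599 TPM), and the part of these markers in the difference was not tested.

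**Figure D4:**
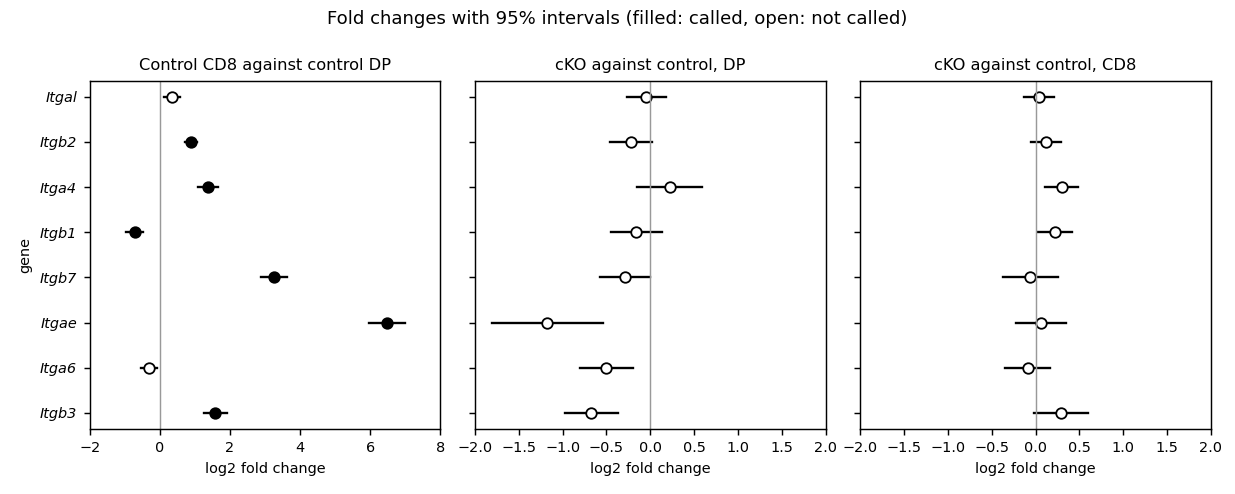
Log2 fold changes (horizontal axes) of the 8 members (vertical axis) in control CD8 against control DP cells and in cKO against control cells of each type, as points with 95% intervals from the edgeR fit, filled where called. The 6 filled points all lie in the CD8 against DP panel, whose axis is wider than those of the others.

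In DP cells, cKO was compared with control to ask which mRNAs change with loss of Tox4. *Itgae*, *Itgb3* and *Itga6* were lower in every cKO sample than in every control sample. So were *Itgb2* in TMM-scaled counts only and *Itgb7* in TPM only, but no member passed the edgeR test. Of the 8 members 0 were called by edgeR, against 0.145% of 11748 genes tested, 3 had an unadjusted p under 0.05 (9.18% of all genes tested did) and 2, *Itgae* and *Itgb3*, were called by DESeq2 (0.941% of the 16897 genes it tested). Groups did not overlap in TMM-scaled counts for 4 of 8 members, and for 15.1% of all genes tested. The members' median log2 fold change was -0.25, against -0.0011 over all genes.

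*Itgae* was at 7.64, 7.62 and 3.72 TPM in DP control samples and at 2.03, 3.20 and 2.91 TPM in DP cKO samples. Control sample 3 was near the cKO samples and the other 2 control samples were well above them. The log2 fold change was -1.17 (SE 0.32, edgeR adjusted p = 0.260), and DESeq2 gave -1.18 with an adjusted p of 0.0365, where the adjusted p ran from 0.0365 to 0.557 over the alternatives. *Itgb3* was at 10.5, 9.99 and 8.64 TPM in control samples and at 6.30, 6.52 and 5.06 TPM in cKO samples, with a gap between the groups wider than the spread within either. Its log2 fold change was -0.67 (SE 0.15, adjusted p = 0.172), and DESeq2 gave -0.68 with an adjusted p of 0.0256, in a range of 0.0256 to 0.528 over the alternatives. *Itga6* was at 64.7, 46.1 and 49.5 TPM in control samples and at 40.4, 41.2 and 28.5 TPM in cKO samples. Its groups did not overlap, with control sample 1 high and cKO sample 3 low, and its log2 fold change was -0.51 (SE 0.15, adjusted p = 0.330).

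The chains of LFA-1 and of VLA-4 differed less. *Itgb2* was at 389, 325 and 331 TPM in control samples and at 330.2, 250.2 and 292 TPM in cKO samples, for a log2 fold change of -0.22 (SE 0.12, adjusted p = 0.653). Control sample 2 lay below cKO sample 1 in TPM, and the groups overlapped by these 2 samples on that scale only. *Itgal* was at 594, 574 and 623 TPM in cKO samples and *Itgb1* at 117, 96.9 and 79.7 TPM, both overlapping the control samples, with log2 fold changes of -0.04 and -0.16. *Itga4*, at 108, 93.8 and 66.6 TPM in cKO samples, was the member with a positive log2 fold change, 0.22, and *Itgb7*, at 34.5, 31.7 and 38.6 TPM, had -0.29. *Itga4* overlapped the control samples on both scales. *Itgb7* overlapped them in TMM-scaled counts only, and in TPM all its cKO samples lay below all control samples (39.8 to 47.6 TPM). The adjusted p of *Itgal*, *Itgb1*, *Itga4* and *Itgb7* was 0.622 to 0.946. With 1 library left out, the log2 fold change ran from 0.096 to 0.42 for *Itga4* and from -0.27 to -0.051 for *Itgb1*. For *Itgb2* it ran from -0.29 to -0.12. For 3 samples against 3 the smallest exact permutation p is 0.1, which the 4 members without overlap in TMM-scaled counts reached.

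**Figure D5:**
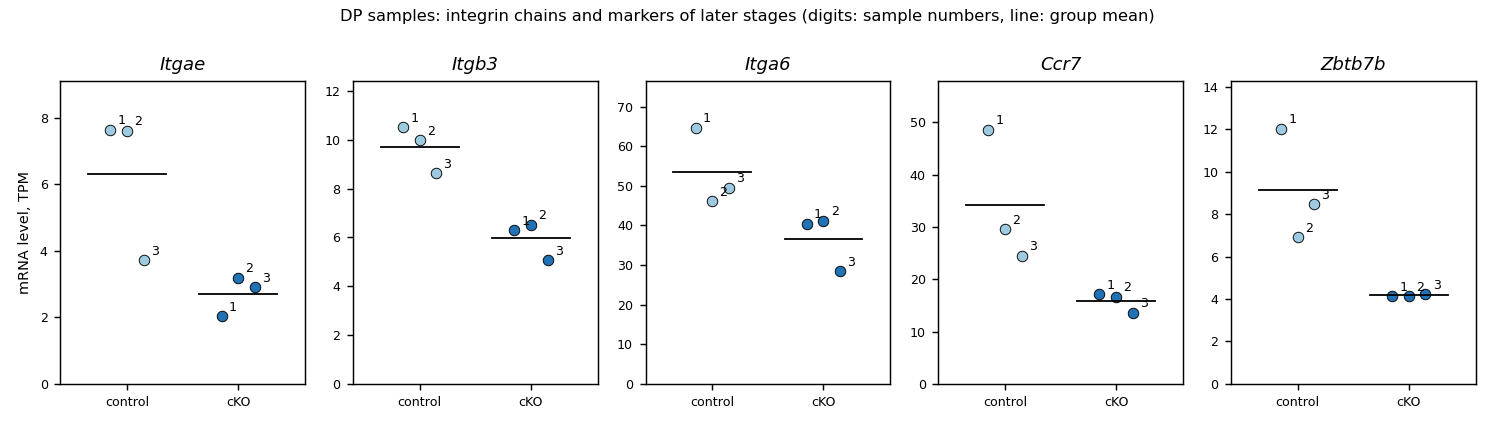
mRNA levels in TPM (vertical axes, from 0) of *Itgae*, *Itgb3*, *Itga6*, *Ccr7* and *Zbtb7b* in DP control and cKO samples (horizontal axes), with 1 point per sample, its number beside it and a line at the group mean. In all 5 genes the 3 cKO samples lie below the 3 control samples.

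No label used here says that samples with the same number are pairs. Paired by number in DP cells, *Itgae*, *Itgb3*, *Itga6*, *Itgb2* and *Itgb1* were lower in cKO in 3 of 3 pairs, in TPM and in TMM-scaled counts. *Itgal* and *Itgb7* were lower in 3 of 3 pairs in TPM, but higher in 1 of 3 in TMM-scaled counts. *Itga4* was higher in 3 of 3 in TMM-scaled counts and in 2 of 3 in TPM. With sample number as a replicate block, the log2 fold changes were -1.13 for *Itgae* (adjusted p = 0.112), -0.67 for *Itgb3* (adjusted p = 0.0545) and -0.51 for *Itga6* (adjusted p = 0.0852), and 0 of 8 members were called, against 1.12% of all genes tested.

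Some genes listed as markers of later stages, of an earlier stage and of other cells were lower in the same DP cKO samples. Of 13 lists of cell type markers, 4 had sums that did not overlap between the genotypes of DP cells, all 4 lower in cKO samples, and 9 overlapped. Of all single genes tested in DP cells, 15.1% did not overlap in TMM-scaled counts and 9.18% had an unadjusted p under 0.05. DESeq2 called 0.941% of the genes it tested. Summed over the 7 mature CD8 markers, the level was 285, 344 and 223 TPM in control samples and 171, 206 and 220.3 TPM in cKO samples, with *H2-K1* the most abundant, a lower cKO mean for 6 of the 7, a median log2 fold change of -0.80 and 0 called by edgeR (3 at an unadjusted p under 0.05, and 1, *Ccr7*, called by DESeq2). Of these, *Ccr7*, the receptor that guides mature thymocytes to the medulla, was at 48.6, 29.5 and 24.5 TPM in control and at 17.1, 16.6 and 13.6 TPM in cKO samples. Summed over *Zbtb7b*, *Cd40lg* and *Foxp3*, markers of the CD4 lineage of which *Cd40lg* was the most abundant in control and *Zbtb7b* in cKO samples, the level was 24.9, 20.5 and 14.5 TPM in control samples and 11.01, 8.09 and 8.42 TPM in cKO samples. All 3 had a lower cKO mean, with 0 called by edgeR (2 at an unadjusted p under 0.05, and 1, *Zbtb7b*, called by DESeq2). *Zbtb7b* was at 12.0, 6.90 and 8.45 TPM in control and at 4.14, 4.13 and 4.22 TPM in cKO samples. None of the markers in either list was at 0 in any DP sample. Summed over *Il2ra*, *Kit* and *Cd44*, markers of the double-negative stage before DP, the level was 27.6, 20.4 and 16.6 TPM in control samples and 13.1, 14.63 and 15.8 TPM in cKO samples, with *Il2ra* the most abundant in control and *Cd44* in cKO samples and none at 0. All 3 had a lower cKO mean, with 0 called by edgeR or DESeq2 and 2 at an unadjusted p under 0.05, *Il2ra* (log2 fold change -0.71) and *Kit* (-0.97). The sum of 5 markers of thymic epithelium, with *Epcam* the most abundant and the other 4 at 0 in at least 1 DP sample, was 7.81 to 12.0 TPM in control and 4.79 to 6.71 TPM in cKO samples. It had 1 gene tested, *Epcam*, which was not called by either tool (edgeR log2 fold change -0.60, unadjusted p = 0.0661). Of 6 myeloid markers, whose sums overlapped, *Lyz2* was at 18.1, 58.3 and 21.8 TPM in control and at 9.84, 10.4 and 10.7 TPM in cKO samples, and DESeq2 called it. Of the other myeloid markers, *Csf1r* was lower (-1.25) and *Cd68* higher (0.63) without overlap, and edgeR called 0 of the 5 tested, with 3 at an unadjusted p under 0.05. DP markers other than *Cd8a* and *Cd8b1* summed to 9649, 7719.5 and 8528 TPM in control and 8922, 7839 and 7359 TPM in cKO samples. *Cd8a*, which mature CD8 cells also have, was at 2341, 1782 and 1802 TPM in control and at 1699, 1274 and 1257 TPM in cKO samples, without overlap (log2 fold change -0.45, edgeR adjusted p = 0.328), and *Cd8b1* overlapped (-0.10). By the study's text, the DP cells were sorted by flow cytometry as CD4+CD8+ cells. The part of all these other cells in the lower *Itgae*, *Itgb3* and *Itga6* was not tested.

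In CD8 cells, the same comparison called no member. *Itga4*, *Itgb3* and *Itgb1* had the log2 fold changes furthest from 0, at 0.30, 0.29 and 0.22, each higher on average in cKO. Of the 8 members 0 were called by edgeR, against 0.0980% of 11227 genes tested, with 2 at an unadjusted p under 0.05 (5.60% of all genes tested were) and 0 called by DESeq2 (0.233% of the 19757 genes it tested). In TMM-scaled counts the groups overlapped for all 8, where 1.5% of all genes tested had groups that did not overlap. In TPM only *Itgb2* did not overlap, at 622 to 698.3 TPM in control and 700.4 to 839.8 TPM in cKO samples. The median log2 fold change of the members was 0.09, against -0.0060 over all genes.

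The members with the smallest p in CD8 cells were the chains of VLA-4. *Itga4* was at 238, 224, 214, 199 and 186 TPM in control samples and at 247, 233, 289, 248 and 322 TPM in cKO samples, where cKO sample 2 lay below control sample 1. It was higher in cKO in 5 of 5 samples of the same number, with a log2 fold change of 0.30 (SE 0.10, adjusted p = 0.508, exact permutation p = 0.0159). Among the samples numbered 1 and 2 the cKO mean was higher by 0.05 on the log2 scale, and among those numbered 3 to 5 by 0.47. In the fit without the samples numbered 1 and 2 it was 0.46 (adjusted p = 0.182, in a range of 0.182 to 0.998 over the alternatives), over 1.5 times the value with them. *Itgb1* was at 63.5, 91.2, 71.4, 65.3 and 67.4 TPM in control samples and at 81.0, 87.9, 78.3, 90.9 and 88.0 TPM in cKO samples. Control sample 2 exceeded every cKO sample and the other 4 control samples lay below all of them. The log2 fold change of *Itgb1* was 0.22 (SE 0.10, adjusted p = 0.872, exact permutation p = 0.0476), and 0.29 without the samples numbered 1 and 2. With sample number as a replicate block, the log2 fold changes were 0.30 for *Itga4* (adjusted p = 0.290) and 0.23 for *Itgb1* (adjusted p = 0.464, in a range of 0.320 to 0.999 over the alternatives), and 0 of 8 members were called, against 0.276% of all genes tested.

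Markers of γδ T cells were higher in the same CD8 cKO samples, which were sorted as TCRβ+ cells. Summed over *Sox13*, *Cd163l1* and *Blk*, the 3 of 6 listed markers that the tables hold, the level was 8.86, 7.89, 8.73, 4.56 and 6.43 TPM in control samples and 29.5, 15.2, 15.3, 14.64 and 22.1 TPM in cKO samples, with *Sox13* the most abundant and none at 0. All cKO samples lay above all control samples, and the sums of the other 12 lists of markers overlapped. With all samples, the 3 genes had a higher cKO mean, with a median log2 fold change of 1.29. *Cd163l1* was called by edgeR (log2 fold change 1.81, adjusted p = 0.00984) and by DESeq2, and *Sox13* by DESeq2 alone (edgeR log2 fold change 1.29, adjusted p = 0.203). Without the samples numbered 1 and 2 neither was called by edgeR, at 1.73 for *Cd163l1* (adjusted p = 0.110) and 1.63 for *Sox13* (adjusted p = 0.0955), and *Blk*, whose highest level was in cKO sample 1 (5.21 TPM), turned to -0.36 (adjusted p = 0.843). The part of such cells in the members' differences was not tested.

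*Itgb3* was at 28.9, 31.7, 37.1, 42.7 and 52.4 TPM in CD8 cKO samples, against 21.1, 32.9, 33.7, 30.6 and 35.2 TPM in control samples, for a log2 fold change of 0.29 (SE 0.16, adjusted p = 0.954) that was 0.35 without the samples numbered 1 and 2. *Itgae* was at 475, 486, 698, 730.2 and 763 TPM and *Itgb7* at 352, 350.5, 425, 548 and 483 TPM in cKO samples. Both spread more by sample number than by genotype. Their log2 fold changes of 0.06 and -0.06 became 0.12 and -0.10 without the samples numbered 1 and 2. *Itga6*, at 31.6, 36.7, 44.6, 48.9 and 54.8 TPM in cKO samples, had a log2 fold change of -0.09, and 0.0046 without the samples numbered 1 and 2.

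The chains of LFA-1 had small log2 fold changes between the genotypes of CD8 cells. *Itgal* was at 882, 909, 839, 885 and 931 TPM in cKO samples and *Itgb2* at 724, 700.4, 728, 839.8 and 750.1 TPM. In TPM all 5 cKO samples of *Itgb2* lay above all 5 control samples (622 to 698.3 TPM), and 5 of 5 samples of the same number were higher in cKO. In TMM-scaled counts the *Itgb2* groups overlapped, and 4 of 5 were higher. The log2 fold changes were 0.04 for *Itgal* and 0.12 for *Itgb2* (0.09 and 0.16 without the samples numbered 1 and 2), and their adjusted p-values were 0.986 and 0.979. Leaving out the library labelled cKO replicate 4, which held the highest *Itgb2* level, gave 0.02 and 0.05. Without that library the log2 fold change was 0.30 for *Itga4*, 0.17 for *Itgb1*, 0.22 for *Itgb3*, -0.19 for *Itgb7*, -0.03 for *Itgae* and -0.17 for *Itga6*, and no member was called.

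Whether the cKO change itself differed between CD8 and DP cells was tested as an interaction over all 16 samples, the same samples as in the comparisons above. Of the 8 members 0 passed at an edgeR adjusted p under 0.05, against 0.107% of 12131 genes tested, with 4 at an unadjusted p under 0.05 (5.27% of all genes tested were) and 1 each by DESeq2 (0.177% of the 20349 genes it tested) and with the replicate block (0.272%). The difference, CD8 minus DP, was above 0 for all 8, with a median of 0.36 against -0.01 over all genes. The largest were those of *Itgae*, 1.23 (SE 0.32, adjusted p = 0.321), and *Itgb3*, 0.96 (SE 0.24, adjusted p = 0.279). DESeq2 gave 1.25 for *Itgae* with an adjusted p of 0.0352, in a range of 0.0352 to 0.829 over the alternatives. With the replicate block *Itgb3* had 0.95 with an adjusted p of 0.0180, in a range of 0.0180 to 0.697. Without the CD8 samples numbered 1 and 2 the values were 1.29 for *Itgae* and 1.02 for *Itgb3*, and the adjusted p-values were 0.269 and 0.0690.

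In cKO cells the order of the chains by mean TPM was the same as in control cells of each type. In DP cKO cells it was *Itgal* at 597 ± 24.5 TPM (SD, n = 3), *Itgb2* at 291 ± 40.1, *Itgb1* at 97.9 ± 18.8, *Itga4* at 89.6 ± 21.2, *Itga6* at 36.7 ± 7.11, *Itgb7* at 34.9 ± 3.48, *Itgb3* at 5.96 ± 0.784 and *Itgae* at 2.71 ± 0.610 TPM, with overlap between *Itgb1* and *Itga4* and between *Itga6* and *Itgb7*. In CD8 cKO cells it was *Itgal* at 889 ± 34.4 TPM (SD, n = 5), *Itgb2* at 748 ± 54.0, *Itgae* at 631 ± 139, *Itgb7* at 432 ± 85.4, *Itga4* at 268 ± 36.9, *Itgb1* at 85.2 ± 5.29, *Itga6* at 43.3 ± 9.30 and *Itgb3* at 38.6 ± 9.40 TPM. Overlap ran from *Itgal* to *Itgb7* between each gene and the next, and from *Itga6* to *Itgb3*. Without the samples numbered 1 and 2 the order of the means was the same in CD8 cKO cells. The log2 ratio of *Itgae* to *Itgb7* was -3.71 ± 0.39 in DP cKO and 0.54 ± 0.14 in CD8 cKO cells, and that of *Itga4* to *Itgb1* was -0.14 ± 0.11 and 1.64 ± 0.23, each on the same side of 0 as in control cells. In DP cells the samples of the latter did not overlap between genotypes, from -0.71 to -0.38 in control and from -0.26 to -0.05 in cKO samples. Nor did those of *Itga6* to *Itgb1* (-1.229 to -0.912 and -1.535 to -1.235) and *Itgav* to *Itgb3* (0.563 to 0.888 and 0.995 to 1.504). The samples of *Itgae* to *Itga4* (-4.17 to -3.11 and -5.74 to -4.52) were apart too. Those of *Itgal* to *Itgb2*, *Itga4* to *Itgb7* and *Itgae* to *Itgb7* overlapped. For *Itga6* to *Itgb1* the nearest samples of the genotypes almost met, at -1.229 and -1.235. No share over other ratios was computed, but 15.1% of single genes tested in DP cells did not overlap in TMM-scaled counts. The ratios were not tested, and they reuse the members' levels compared above.

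Of the 19 other integrin subunit genes, 13 reached a mean of 1 TPM in at least 1 of the 4 groups, and the other 6 stayed at or below 0.695 TPM. *Itgav*, the αv partner of β3, was at 15.9, 14.2, 24.7 and 28.3 TPM on average in DP control, DP cKO, CD8 control and CD8 cKO cells, and its difference between control CD8 and DP cells (log2 fold change 0.56, adjusted p = 0.00250) missed the fold needed. *Itga5*, the fibronectin receptor chain, was at 22.4, 20.8, 19.0 and 17.3 TPM, *Itga10* at 4.92, 4.51, 6.08 and 5.34 TPM, and *Itga3* at 2.0, 1.72, 2.63 and 2.23 TPM in the same order of groups. None of these 4 had groups that differed by a call.

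Of the whole list of 27 subunits, 21 were tested between control CD8 and DP cells, 6 were called higher and 3 lower (22.0% and 22.3% of all genes tested were), with a median log2 fold change of 0.56 against -0.01 over all genes. Called beside the members were *Itga9*, higher at 1.27 against 0.563 TPM (log2 fold change 1.08, adjusted p = 0.0394, but 0.58 and not called without the CD8 samples numbered 1 and 2), *Itgam*, the αM chain of myeloid cells, lower at 1.28 against 6.99 TPM (-2.52, adjusted p = 1.60e-05), and *Itgb4*, lower at 0.454 against 2.0 TPM (-2.25, adjusted p = 0.0170, and -4.45 without the CD8 samples numbered 1 and 2). Below the mean level needed for a call were *Itga1*, with a log2 fold change of 4.13 (adjusted p = 3.34e-04) at 1.42 against 0.0711 TPM, *Itga2*, with 3.60 (adjusted p = 4.20e-04) at 1.12 against 0.0822 TPM, *Itgb8*, with 2.32 (adjusted p = 0.0155) at 1.31 against 0.234 TPM, and *Itgad*, with 1.51 (adjusted p = 0.0491) at 0.833 against 0.271 TPM. *Itga1*, *Itga2*, *Itgad* and *Itgax* were between 0.0576 and 1.42 TPM in every group mean, and *Itga1* was at 3.09 TPM in CD8 control sample 1, the library with counts on the most genes. Myeloid markers other than *Itgam* and *Itgax* (6 genes, with *Cd68* the most abundant over all samples) summed to 42.9 to 87.5 TPM in DP samples and 35.9 to 90.8 TPM in CD8 samples. These like sums join genes that went opposite ways between control CD8 and DP cells. *Lyz2* (log2 fold change -3.94) and *Csf1r* (-2.40) were lower in CD8 cells, like *Itgam*, while *Cd68* (0.74) and *Fcer1g* (1.33) were higher. *Adgre1* and *Cd14* had no log2 fold change in this comparison. The part of myeloid cells in the *Itgam* levels was not tested.

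*Itga2b*, the αIIb chain that pairs with β3 in platelets, was at 2.22, 3.91 and 4.41 TPM in DP control samples and at 8.12, 9.28 and 6.58 TPM in DP cKO samples. The groups did not overlap, and the direction was opposite to that of *Itgb3*, but the log2 fold change of 1.20 was not called (SE 0.29, adjusted p = 0.202). In CD8 cells *Itga2b* was at 5.28, 2.06, 7.02, 7.12 and 4.44 TPM in control and at 7.35, 6.60, 13.6, 6.13 and 10.9 TPM in cKO samples, which overlapped (log2 fold change 0.73, adjusted p = 0.830). The other 5 platelet markers, *Pf4*, *Ppbp*, *Gp9*, *Gp1ba* and *Gp6*, were all at 0 in 5 of 6 DP samples, and DP control sample 2 had 0.771 TPM, all of it *Pf4*. In CD8 samples they summed to 3.19 TPM in control sample 1, to 0.319 TPM in cKO sample 2 and to 0.0504 TPM in control sample 5, and were all at 0 in the other 7, with *Gp9* the most abundant.

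Genes around the integrins were described from 3 lists. Of 16 integrin ligands, 7 were tested between control CD8 and DP cells, 3 called higher and 2 lower, with a median log2 fold change of -1.09. Over all genes tested, 22.0% were called higher and 22.3% lower, with a median of -0.01, here and for the lists that follow. *Cdh1*, E-cadherin and so the ligand of αEβ7, was itself at 1.09 ± 0.744 TPM in DP control cells (SD, n = 3) and at 15.5 ± 1.24 TPM in CD8 control cells (SD, n = 5), a log2 fold change of 3.73 (SE 0.37, adjusted p = 5.31e-06). Of the LFA-1 ligands, *Icam1* rose (1.51, from 29.4 to 88.0 TPM) and *Icam2* fell (-1.16, from 229 to 108 TPM). The laminin chain *Lamc1* fell (-1.09) and the collagen chain *Col1a1* rose (2.29, from 0.310 to 1.65 TPM), a call that was lost without the CD8 samples numbered 1 and 2, where 2 of 6 were called higher and 2 lower, with a median of 0.21.

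Of 27 genes of inside-out activation, the steps by which signals in the cell switch integrins to high affinity, 22 were tested, 10 were called higher in control CD8 cells and 3 lower, with a median log2 fold change of 0.36. Talin 1, *Tln1*, which binds β tails, was at 501 and 516 TPM in DP and CD8 control cells (-0.04), and the list's other most abundant genes were *Rasgrp1* at 526 and 714 TPM and *Fyb* at 328 and 615 TPM. Called higher were *Rasa3* (2.38), a brake on Rap1, the Rap1 activator *Rasgrp2* (1.13), the Rap1 effectors *Rassf5* (1.02) and *Apbb1ip* (0.69), *Cyth1* (0.98), *Fyb* (0.84), *Sipa1l1* (0.82), *Sipa1* (0.76), *Rap1b* (0.63) and *Dock2* (0.61). Called lower were *Rhoh* (-1.42), *Dok1* (-1.05) and *Itgb1bp1* (-0.80). Of 26 adhesion adaptors and kinases, 20 were tested, 5 called higher and 3 lower, with a median of -0.07. Those higher were *Zyx* (1.37), *Vasp* (1.11), *Ptk2b* (0.96), *Nedd9* (0.83) and *Actn1* (0.78), where *Actn1*, *Vasp* and *Zyx* are also the most abundant of the list, at 462, 490.3 and 444 TPM in CD8 control cells. Those lower were *Tns3* (-3.57), *Syk* (-3.02) and *Crk* (-0.75). Without the CD8 samples numbered 1 and 2, the counts stayed at 10 higher and 3 lower for inside-out activation and became 6 and 4 for adaptors and kinases, with *Vcl* and *Lpxn* added. In cKO against control cells, 0 genes of these 3 lists were called by edgeR. At an unadjusted p under 0.05 there were 8 of 47 tested in DP cells, 2 of 47 in CD8 cells and 7 of 50 in the interaction, against 9.18%, 5.60% and 5.27% of all genes tested, and DESeq2 called 1, 0 and 0, against 0.941%, 0.233% and 0.177% of all genes it tested. The gene called by DESeq2 was *Dock2* in DP cells, a Rac activator of lymphocyte movement (edgeR log2 fold change -0.60, adjusted p = 0.107).

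Genes with levels most like those of the members were sought among 12040 genes over the 16 samples, by the root mean square difference of centred log2(TPM + 1). This was done for the 4 members with a log2 fold change of at least 1 in size between control CD8 and DP cells. Nearest to *Itgae* were *Adgrg5* (0.31), *Igfbp4* (0.42) and *Rflnb* (0.48), and nearest to *Itgb7* were *Sema4f* (0.15), *Pim2* (0.18) and *Foxo1* (0.19). Nearest to *Itga4* were *Mycbp2* (0.18), *Fam120c* (0.18) and *Tet1* (0.19), and nearest to *Itgb3* were *Stk17b* (0.17), *Mcur1* (0.18) and *Cd82* (0.18). Within 0.5 of a member lay 3 genes for *Itgae*, 195 for *Itgb7*, 756 for *Itgb3* and 1969 for *Itga4*, so the genes named are the nearest of many for the last 3 members. The CD8 and DP samples in this measure come from separate tables.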

How the data were processed

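The authors filtered reads with fastp 0.13.1, aligned them with HISAT2 2.1.0 and counted fragments per gene with featureCounts 1.6.1 in strand-specific mode, and the deposited raw counts were used here (mm10 for DP cells; the build of the CD8 table is not given in the sources used here). TPM was computed here with the exonic lengths of the DP table. Tests were 2-sided edgeR quasi-likelihood F tests (edgeR 4.0.16, R 4.3.3) with TMM scaling, filterByExpr and Benjamini-Hochberg adjustment over all genes tested, and a call needed an adjusted p below 0.05, a difference of 1.5-fold or more and 1 TPM or more on average (the interaction: adjusted p alone). Standard errors came from that fit. The method was tried on simulated counts before use. Columns Ctrl and Tox4_KO of the CD8 table were read as control and cKO. The study's reporting summary speaks of biological replicates, with more added where the first ones differed. No source used here says which samples were added or that each is a separate animal, so p-values measure spread between these samples.

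Alternatives were RLE and upper-quartile scaling, DESeq2 1.42.0, the replicate block, all groups in one fit, other filters on low counts, adjusted p alone, CPM for levels, ratios without length and each library left out. CD8 cells without the samples numbered 1, or 1 and 2, were added after seeing the data, as were levels, shares, ratios and lists without those numbered 1 and 2, other filters and adjusted p alone for the members and the side of 0 of ratios without length. Named genes were the members, *Tox4*, other subunits with a mean of at least 1 TPM in a group, called genes and the 3 most abundant of each list, and marker genes, of which 1 is not reported. *Ccr7*, *Zbtb7b*, *Klf2*, *Rag1*, *Cd4*, *Dntt*, *Il2ra*, *Kit*, *Lyz2*, *Csf1r*, *Cd8a*, *Cd163l1*, *Vcl*, *Lpxn*, *Itgb8* and the per-sample values of *Itga2b* and *Itga1* were picked out after their values were seen. The members and lists were chosen with earlier results of these data known.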

Additional observations from a re-analysis of the deposited data

Results flagged for a closer look

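Each of these values lay far from the other 4 samples of its group, with a gap to the nearest sample above 0.71 of the group's range. Chance gives such a gap in about 1 of 20 groups, and 4 of 44 groups of CD8 samples showed one, where 2.2 would be reached by chance. *Itgb1* was at 91.2 TPM in CD8 control sample 2, with the nearest sample at 71.4 TPM (gap ratio 0.717). Its share of the summed β-chain TPM was 7.67% in the same sample, with the nearest at 5.90% (0.714). CD8 control sample 1 had counts on 17741 genes, with the nearest at 14194 (0.879). The log2 ratio of *Itga4* to *Itgb7* was -1.14 in the library labelled CD8 cKO replicate 4, with the nearest at -0.59 (0.882), which is the library with a higher *Tox4* level than any CD8 control library.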

How the results depend on the processing

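Of 608 values of the members' log2 fold changes under the alternatives, 594 kept direction and side of the threshold. In control CD8 against control DP, all but 2 did, *Itgal* (0.35) and *Itga6* (-0.32), which passed with adjusted p alone, and 5213 genes were called and 4658 to 7093 under the alternatives. Past the threshold under 1 alternative each were *Itgae* (-1.18) and *Itgb3* (-0.68) in DP cells and *Itgae* in the interaction (1.25) with DESeq2, and *Itgb3* in the interaction with the replicate block (0.95). The sign turned for 8 values, all near 0: *Itgal* in DP cells to 0.0017 without control replicate 3 (from -0.11 over libraries left out); in CD8 cells *Itgae* to -0.0083 without control replicate 2 and -0.032 without cKO replicate 4 (up to 0.14), *Itgb7* to 0.0088 without control replicate 4 and 0.0073 without cKO replicate 2 (from -0.19), and *Itga6* to 0.0046 without the samples numbered 1 and 2; *Itga4* in the interaction to -0.12 without DP control replicate 1 and -0.058 without DP cKO replicate 3 (up to 0.21). The 17 genes called in DP cells became 159 with DESeq2, 131 with the replicate block, 41 with all groups in one fit, 74 with no filter on low counts and 0 to 8 with a library left out (0 without control replicate 2, 1 each without cKO replicates 2 and 3, 4 without control replicate 3, 7 without cKO replicate 1 and 8 without control replicate 1). The 11 in CD8 cells became 46 with DESeq2, 31 with the replicate block, 5 without the samples numbered 1 and 5 without those numbered 1 and 2, and 4 to 20 with a library left out (4, 6 and 7 without control replicates 3 and 5 and cKO replicate 3, 20 without cKO replicate 4). The 13 of the interaction became 3 with upper-quartile scaling, 36 with DESeq2, 33 with the replicate block, 6 and 5 without the CD8 samples numbered 1 and without 1 and 2, and 0 to 11 with a library left out (0 without DP control replicate 2 or DP cKO replicate 2). Fewer samples entered the fits with libraries left out, and otherwise the cause was not tested. With counts not divided by length, 23 of 28 mean log2 ratios of chains kept their side of 0, and 5 turned: *Itga4* to *Itgb1* to 0.71 in DP control and 1.09 in DP cKO cells, *Itga4* to *Itgb7* to 0.84 in CD8 control and 1.20 in CD8 cKO cells, and *Itgae* to *Itga4* to -0.14 in CD8 cKO cells. With CPM, all 8 members kept the direction of the difference in mean level between control CD8 and DP cells. Residuals of samples with the same number correlated at 0.121 to 0.642 in DP cells (mean 0.351, against -0.168 for other numbers, with a highest of 0.324). In CD8 cells they correlated at 0.089 to 0.359 (mean 0.269, against -0.070 for other numbers, with a highest of 0.412). Between control CD8 and DP samples they correlated at -0.13 to 0.048. Depth limits *Itgae* in DP cells and the subunits near 1 TPM, and no p of 3 samples against 3 by permutation can go below 0.1.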
